A study of Mus musculus with 54 samples.

Results

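The comparison described here asks whether 16,16-dimethyl-prostaglandin E2 (dmPGE2) changed gene expression in haematopoietic stem cells (HSC) of irradiated mice by the same factor as in mice that were not irradiated. It is a difference of differences at 1 h, computed for every gene: the change with dmPGE2 after radiation minus the change with dmPGE2 without radiation, on the log2 scale. The members are the 38 libraries that this needs, of 54 in the series, chosen by their group and not by any measured value. All mice carried the green fluorescent reporter ZsGreen at the Fgd5 locus on a C57BL/6 background, and HSC were sorted from bone marrow by SLAM-LSK surface markers and by that reporter, so the cells are a reporter-selected population. The 4 groups were 15 libraries of non-irradiated mice given the ethanol vehicle, 7 of non-irradiated mice given dmPGE2 and taken at 1 h, 8 of mice given vehicle and then 8.53 Gy (a dose lethal to 50% of mice), and 8 of mice given dmPGE2 and then the same dose. The injection was subcutaneous, 30 min before radiation, and the irradiated HSC were taken 1 h after it. The labels used here give both male and female mice in every group and state no animal age. The 15 non-irradiated vehicle libraries pool the 1 h and 24 h time points, since their columns give no time, and this bears on the vehicle side of every value below that uses them.

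dmPGE2 is a long-lived analogue of prostaglandin E2. Prostaglandin E2 acts through 4 G protein-coupled receptors, EP1 to EP4, of which EP2 and EP4 raise cAMP, and cAMP activates the transcription factor CREB and a fast set of target genes. Ionizing radiation breaks DNA, which stabilizes the transcription factor p53 and switches on its targets for cell cycle arrest and apoptosis, and it also activates NF-kB. In HSC, prostaglandin E2 is known for effects on survival, homing and self-renewal.

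Counts per library ranged from 15049364 to 25278219 in the non-irradiated vehicle group, 19963860 to 22976367 with dmPGE2 alone, 20437332 to 26217041 with radiation alone and 21085900 to 25384366 with both. The 8 HSC marker genes read were detected in every library, with Procr between 54.2 and 185 CPM and Kit between 1002 and 1992. CPM are read counts scaled by library size in this paragraph, and by library size and composition in all later ones. Among 10 lists of markers of other cell types, Cd79b of the B cell list was the 1 gene called in the interaction, and the summed neutrophil markers spread widely in every group, with medians of 566, 741, 580 and 536 CPM in the order of groups above. The summed mast cell and basophil markers had medians of 228, 175, 111 and 84 CPM, with libraries from 21.7 to 1160.5 within the group given dmPGE2 alone. The part of such cells in the results was not tested, and in bulk RNA fewer cells of a type and less RNA per cell cannot be told apart. The control libraries fell into 2 ranges of sequencing index number, 8 with numbers 42 to 70, while the other 3 groups have numbers up to 72, and 7 with numbers 79 to 85. These 2 ranges differed in 647 genes (4.62%), of which 1 is among the genes named below. The labels give 7 female mice in the vehicle control group, while 5 of its 15 libraries had more Xist than Y-linked counts. The same held for 4 of 7 libraries with dmPGE2 alone, 4 of 8 with radiation alone and 4 of 8 with both. The fit had no sex term, and the part of sex in the results was not tested. The column tags of the control libraries repeat in 7 pairs whose deviations from the group mean correlated at 0.411 to 0.737, so 15 control libraries may not stand for 15 independent mice. Where the text gives a result with the first range, it means that only the 8 controls of index 42 to 70 were used.

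Fewer genes were called for radiation in dmPGE2 mice than in vehicle mice. Radiation changed 2916 of 13995 genes tested (20.8%) in vehicle mice, 1505 higher (10.8%) and 1411 lower (10.1%). In dmPGE2 mice radiation was called in 67 genes (0.479%), 62 higher (0.443%) and 5 lower (0.0357%). This count compares 8 with 7 libraries and the vehicle count 8 with 15, so their power differs. Of the 1505 and 1411 genes, 349 and 297 were called in the interaction. The others were not shown to differ between vehicle and dmPGE2 mice. dmPGE2 changed 2083 genes (14.9%) without radiation, 966 higher (6.9%) and 1117 lower (7.98%), and 2743 (19.6%) with it, 1348 higher (9.63%) and 1395 lower (9.97%). The interaction itself was called in 665 genes (4.75%), 312 above 0 (2.23%) and 353 below 0 (2.52%), at an adjusted p below 0.05 in edgeR's quasi-likelihood test. Of these, 222 were at least 2-fold, 81 above 0 and 141 below. With the first range of controls 438 genes were called, of which 413 are among the 665. Fitted with all 54 libraries the count was 426. With the first range of controls radiation was called in 1773 genes of vehicle mice, 985 of them higher, and with DESeq2 it was called in 109 genes of dmPGE2 mice. The vehicle effect of radiation and the effect of dmPGE2 without radiation share the 15 control libraries, so they are given side by side and not correlated.

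Set out by form, 642 of the 665 called interactions (96.5%) were genes that radiation changed in vehicle mice and whose interaction had the opposite sign. Apart from Gpr157 (-0.44 in vehicle and 0.47 in dmPGE2 mice), their radiation effect was closer to 0 under dmPGE2. These are called blunted here, and the form is read from the same fit as the call, so it describes the genes and adds no support. Radiation with vehicle had raised 348 of them by a median of 0.86 on the log2 scale, against a median of 0.06 under dmPGE2. It had lowered 294 of them, with a median of -0.74 against -0.01. The remaining 23 genes were 3 whose radiation response turned round, 1 amplified, 2 with a response only under dmPGE2 and 17 with no called radiation response in either arm.

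**Figure D1:**
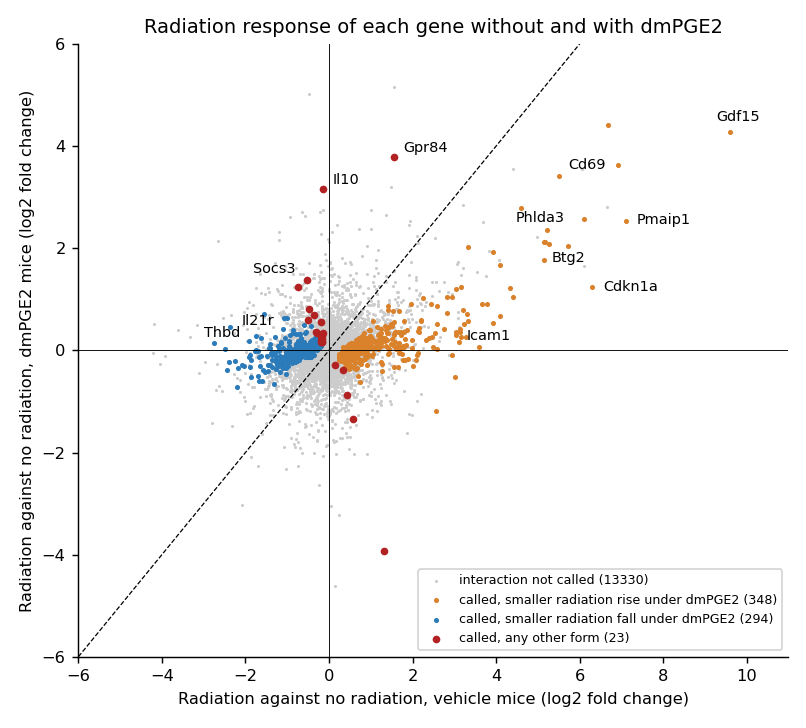
Each point is a gene, placed by its log2 fold change with radiation in vehicle mice (horizontal) and in dmPGE2 mice (vertical); the dashed line marks equal responses, on which the interaction is 0. The 348 orange and 294 blue genes are nearer to 0 on the vertical than on the horizontal axis, apart from Gpr157, and Il10, Socs3 and Gpr84 lie above the line.

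The blunted genes reached this form by different routes. The effects of radiation with vehicle and of dmPGE2 alone share their control libraries, which can move both the same way. The counts by direction are therefore description only. Of the 348 that radiation raised, 182 were not called with dmPGE2 alone, 120 were raised by it too and 46 were lowered by it. A gene that was not called may still have changed. In the 182, radiation with vehicle gave a median of 0.76, dmPGE2 alone 0.06 and radiation under dmPGE2 0.03 (all log2). In the 120, either treatment alone raised the gene, by medians of 1.19 for radiation and 0.69 for dmPGE2, and radiation added a median of 0.09 on top of dmPGE2. Of the 294 that radiation lowered, 142 were not called with dmPGE2 alone, 137 were lowered by it as well and 15 were raised. In the 137 the medians were -0.82 for radiation with vehicle, -0.55 for dmPGE2 alone and -0.06 for radiation under dmPGE2.

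p53 targets were frequent among the interactions below 0. Of 44 p53 targets tested, 27 were called below 0 and none above, with a median interaction of -0.98 against 0.01 over all genes tested and a background of 2.52% called below 0. Radiation with vehicle raised 32 of the 44 (10.8% over all genes) and radiation under dmPGE2 raised 13 (0.443%). The mean log2 CPM over the list was 4.0 ± 0.11 (SD, n = 15) in control libraries, 4.30 ± 0.10 (n = 7) with dmPGE2, 6.22 ± 0.10 (n = 8) with radiation and 4.84 ± 0.205 (n = 8) with both. No irradiated dmPGE2 library, at 4.67 to 5.27, reached the range of the irradiated vehicle libraries, 6.03 to 6.34. The gene for p53 itself, Trp53, had an interaction of 0.05 ± 0.12 (SE, adjusted p = 0.874), with a 95% interval from -0.19 to 0.29. Its median was 325 CPM in controls, 279.9 with dmPGE2, 337 with radiation and 277 with both, and the 4 ranges overlapped. The control median was 302 CPM (270 to 335) at index 42 to 70 and 374 CPM (319 to 391) at index 79 to 85.

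Gdf15, a secreted stress cytokine and p53 target, had the lowest interaction, -5.33 ± 0.45 (SE, adjusted p = 6.7e-11). Its lowest, median and highest values were 0.754, 1.38 and 2.39 CPM in controls and 0.951, 1.49 and 2.92 with dmPGE2. With radiation they were 859, 1246 and 1559.9 CPM, and with both 14.5, 27.7 and 100.9. Every library with both treatments lay above every non-irradiated one and below every library with radiation and vehicle. dmPGE2 alone did not detectably change it (log2 fold change 0.16, adjusted p = 0.83). The value of 100.9 belongs to library 4 of the group given both, and the next is 34.4.

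Cdkn1a, which encodes the cyclin-dependent kinase inhibitor p21 and halts the cycle after damage, took another route. Its control libraries had 5.77 to 17.8 CPM with a median of 6.94, and those with dmPGE2 alone 101.4 to 188 with a median of 114. With radiation and vehicle the range was 558 to 852 and the median 628, and with both it was 229 to 416 with a median of 305. The 4 groups did not overlap, and the combined group lay between its single treatments. The log2 change was 3.97 with dmPGE2 alone and 6.30 with radiation alone. On top of radiation dmPGE2 lowered it by 1.10, and the interaction was -5.07 ± 0.27 (SE, adjusted p = 1.0e-16).

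Bbc3, which encodes the apoptosis inducer PUMA, had a median of 14.8 CPM in controls, 9.87 with dmPGE2, 299 with radiation and 21.5 with both. Its 8 libraries with both treatments, at 11.6 to 42.8 CPM, overlapped the control range of 11.1 to 20.7 and lay wholly below the 243 to 401 of radiation alone. Radiation still raised Bbc3 under dmPGE2, by 1.22 on the log2 scale (adjusted p = 0.00024). The interaction was -3.12 ± 0.26 (SE, adjusted p = 8.3e-12). Pmaip1, which encodes the related inducer NOXA, went from a control median of 0.649 CPM to 80.9 with radiation and 7.83 with both, with an interaction of -4.57 ± 0.59 (SE, adjusted p = 7.2e-07). Phlda3, an inhibitor of AKT signalling, had medians of 5.64, 3.45, 412 and 17.1 CPM in the order control, dmPGE2, radiation and both, and its interaction was -3.52. Among the 27 called targets, Bbc3 and Phlda3 belong to the 5 that dmPGE2 alone lowered and radiation raised, with Trp53inp1, Eda2r and Rap2b.

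Other p53 targets were not called with dmPGE2 alone. Sesn2, a stress-responsive regulator of mTORC1, had 21.9 to 47.6 CPM in controls, 19.7 to 31.2 with dmPGE2, 394 to 628 with radiation and 23.6 to 67.7 with both. Its radiation response was still called under dmPGE2, at 0.67 (log2, adjusted p = 0.03). Ccng1 (cyclin G1) had an interaction of -2.33, and Gtse1, whose product binds p53, one of -2.90. Mdm2, the ubiquitin ligase that degrades p53, had control and dmPGE2 medians of 88.5 and 82.1 CPM, then 396 with radiation and 121 with both, and an interaction of -1.71 ± 0.14 (SE, adjusted p = 2.9e-12). Its ranges with both (88.5 to 134) and with radiation alone (277 to 484) did not overlap. Radiation still raised Mdm2 under dmPGE2, by 0.44 (log2, adjusted p = 0.034). Bax and Apaf1 of the apoptosis machinery moved less, with interactions of -0.53 and -0.82, and Apaf1 was not called with the first range of controls.

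A further 6 of the 27 were raised by either treatment alone: Btg2, Plk2, Plk3, Tnfrsf10b, Cdkn1a and Pmaip1. Btg2, an antiproliferative gene that both p53 and immediate early signals induce, had a control range of 7.00 to 49 CPM, 102 to 243 with dmPGE2, 567 to 942 with radiation and 437 to 1003 with both. Its last 2 groups overlapped, and radiation still added 2.12 (log2) under dmPGE2 against 5.15 without. Tnfrsf10b, a TRAIL death receptor, had mean values of 4.66, 16.7, 40 and 18.8 CPM, so that both together gave about the level of dmPGE2 alone. Plk2, a stress-induced polo-like kinase, had means of 37.1, 281, 342 and 488 CPM and an interaction of -2.41. Of the 44 targets, 17 were not called in the interaction, among them Ddb2 (0.05), Xpc (-0.05), Pml (-0.06) and Sesn1 (0.18), and none of these 4 was called in either radiation contrast.

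**Figure D2:**
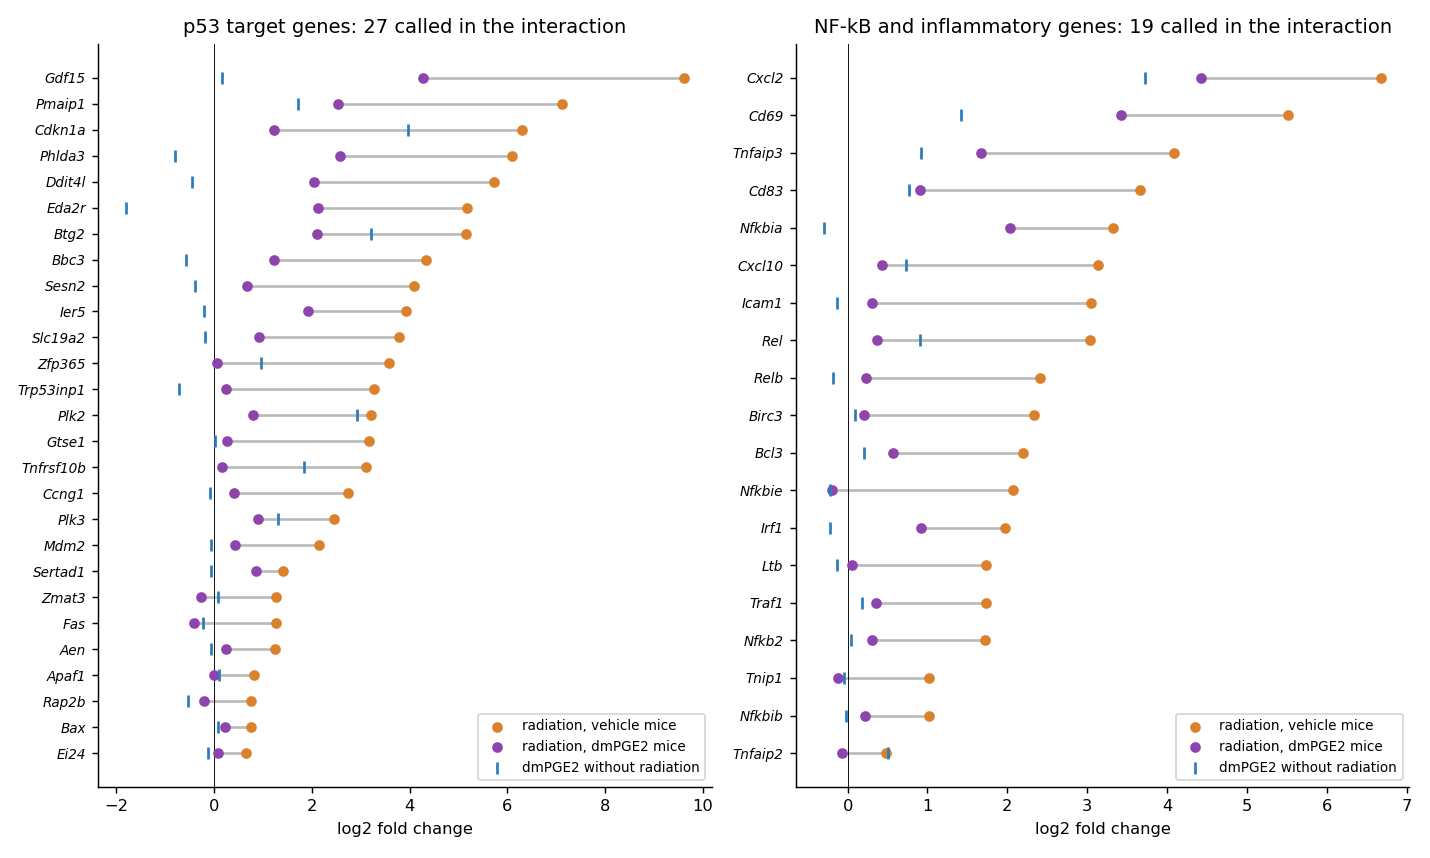
For each called p53 target (left, 27 genes) and NF-kB or inflammatory gene (right, 19 genes), the log2 fold change with radiation is shown in vehicle mice (orange) and dmPGE2 mice (purple), with that of dmPGE2 without radiation as a blue tick. All purple points lie left of their orange points, and the ticks fall on both sides of 0 among the p53 targets.

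Start-site windows of a few of these genes are printed to show matches to the p53, CREB and NF-kB consensus motifs. The matches were not compared with sites known to bind these factors. The windows run from 250 bases before to 50 after the annotated start (RefSeq, GRCm38.p6), and 10614 of the 13995 tested genes have such a window. In capitals are p53 consensus decamers in Cdkn1a, chr17:29090729-29091028 (+ strand), and Mdm2, chr10:117710709-117711008 (- strand), the cAMP response element TGACGTCA in Btg2, chr1:134079106-134079405 (- strand), and NF-kB consensus sites in Tnfaip3, chr10:19015361-19015660 (- strand). All motifs were searched on both strands, and the 4 genes were chosen after their matches were seen.
Cdkn1a: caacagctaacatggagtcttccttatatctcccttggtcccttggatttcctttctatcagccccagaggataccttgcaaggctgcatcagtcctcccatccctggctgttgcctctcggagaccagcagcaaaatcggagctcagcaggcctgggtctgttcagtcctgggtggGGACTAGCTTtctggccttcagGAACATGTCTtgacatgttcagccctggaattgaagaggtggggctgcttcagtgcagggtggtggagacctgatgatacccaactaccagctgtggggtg
Mdm2: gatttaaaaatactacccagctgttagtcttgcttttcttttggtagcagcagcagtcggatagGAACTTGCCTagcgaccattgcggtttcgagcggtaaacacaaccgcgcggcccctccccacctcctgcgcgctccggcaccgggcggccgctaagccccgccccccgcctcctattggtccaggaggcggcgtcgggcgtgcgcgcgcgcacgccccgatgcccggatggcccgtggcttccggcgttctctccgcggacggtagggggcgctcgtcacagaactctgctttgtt
Btg2: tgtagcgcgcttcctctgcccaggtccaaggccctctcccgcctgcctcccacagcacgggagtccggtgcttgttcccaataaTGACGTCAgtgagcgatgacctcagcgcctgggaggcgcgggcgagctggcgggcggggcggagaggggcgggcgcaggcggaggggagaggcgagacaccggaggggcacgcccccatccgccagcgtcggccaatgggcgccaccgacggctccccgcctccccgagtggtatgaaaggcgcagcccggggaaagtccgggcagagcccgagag
Tnfaip3: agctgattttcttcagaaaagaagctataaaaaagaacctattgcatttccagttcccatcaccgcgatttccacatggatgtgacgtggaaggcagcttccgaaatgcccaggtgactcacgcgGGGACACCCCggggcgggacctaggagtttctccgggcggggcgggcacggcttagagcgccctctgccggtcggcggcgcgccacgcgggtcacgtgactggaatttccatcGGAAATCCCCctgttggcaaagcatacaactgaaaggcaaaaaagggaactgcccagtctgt
Cdkn1a had 2 p53 decamers and Mdm2 1. The decamer was in 13 of 35 p53 target windows (37.1%) and in 8.14% of all windows. The NF-kB consensus was in 12 of 22 windows of the NF-kB list (54.5%) and in 6.39% of all. TGACG, the core of the cAMP response element and part of TGACGTCA, was in 12 of 19 windows of the cAMP list (63.2%) and in 34.5% of all, and TGACGTCA in 1 of 19 (5.26%) and 3.46%. In the 285 windows of radiation-raised blunted genes the p53 decamer was found in 11.9%, the NF-kB consensus in 15.4% and TGACGTCA in 7.37%. A match describes letters in this window only.

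NF-kB and inflammatory genes followed the p53 targets in direction and share. Of 31 tested, 19 were called below 0 (2.52% over all genes) and none above, with a median interaction of -1.37. Radiation with vehicle raised 25 of the 31 (10.8% over all genes), and radiation under dmPGE2 raised 7 (0.443%). The smallest adjusted p of any gene was that of Icam1, an adhesion molecule and classical NF-kB target, at 8.6e-20 for an interaction of -2.74 ± 0.12 (SE). Icam1 had 91 to 124 CPM in controls, 66.5 to 113 with dmPGE2, 775 to 1051 with radiation and 103 to 175 with both. The group given both overlapped both non-irradiated groups and lay below all libraries with radiation and vehicle.

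The feedback inhibitors of NF-kB were among these genes. Nfkbie, which encodes IκB epsilon, had medians of 48.8, 45.3, 204 and 35.8 CPM in the order control, dmPGE2, radiation and both, with an interaction of -2.27 ± 0.16 (SE, adjusted p = 6.5e-14). Nfkbia, which encodes IκB alpha, kept a called radiation response under dmPGE2, 2.03 on the log2 scale against 3.32 with vehicle. Tnfaip3, which encodes the deubiquitinating enzyme A20, had 11.7 to 35.3 CPM in controls, 36.4 to 64.8 with dmPGE2, 365 to 537 with radiation and 86.5 to 207 with both, and no 2 of these ranges overlapped. Among the subunits, Rel (-2.67), Relb (-2.17) and Nfkb2 (-1.41) were called and Nfkb1 (0.02) was not, nor was Nfkb1 called in any of the other contrasts. Birc3, an apoptosis inhibitor, had an interaction of -2.12, and the activation markers Cd69 and Cd83 had -2.09 and -2.76.

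The list also holds chemokines. Cxcl2, which attracts neutrophils, had means of 0.283 CPM in controls, 3.86 with dmPGE2, 30.2 with radiation and 82.8 with both. Its interaction of -2.26 (adjusted p = 0.0087) therefore means a smaller multiple and not a lower level than with radiation alone. Cxcl10, an interferon-inducible chemokine, had means of 9.19, 15.2, 81 and 20.4 CPM. Il1b, Ptgs2, Cxcl1 and Tnf were not called in the interaction, with values of -2.31, -1.89, -0.85 and -1.19 that carry wide errors at their low counts.

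Immediate early genes, which respond within minutes to many signals, were raised by dmPGE2 alone in 21 of 30 cases (6.9% over all genes) and by radiation with vehicle in 23 (10.8% over all genes). Their interaction was called below 0 in 7 (2.52% over all genes) and above 0 in none, with a median of -0.50, and all 7 (Btg2, Jund, Maff, Klf4, Fosl1, Nr4a3, Fosl2) were raised by either treatment alone. Maff, a small Maf transcription factor, had medians of 11.5, 40.2, 51.1 and 71.9 CPM, and the libraries with both overlapped those of each single treatment. Klf4, a zinc-finger factor of quiescent HSC, had medians of 0.603, 6.00, 2.35 and 6.72 CPM, with no detectable further rise on top of dmPGE2 (-0.31, adjusted p = 0.915). For Jun, Fos and Egr1 the interaction was -1.69, 2.62 and 1.35, and none was called (adjusted p from 0.17 to 0.36). Fos had means of 114, 385, 23.4 and 489 CPM.

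Of 26 cAMP and CREB targets tested, dmPGE2 raised 17 without radiation (6.9% over all genes) and 12 with it (9.63%). The interaction was called below 0 in 6 (2.52% over all genes) and above 0 in 1 (2.23%). Sik1, a salt-inducible kinase that restrains CREB coactivators, had 8.94 to 42.5 CPM in controls and 297 to 509 with dmPGE2. With radiation alone it had 89.4 to 192, and with both 220.4 to 524. The 2 dmPGE2 groups overlapped, the irradiated vehicle group lay between controls and both, and the interaction was -2.55 ± 0.31 (SE, adjusted p = 2.1e-07). Radiation changed Sik1 by 2.58 with vehicle and 0.03 under dmPGE2 (log2). Per1, a circadian repressor with CREB sites, and Pde4b, a cAMP phosphodiesterase, had interactions of -1.51 and -0.81 of the same form, and Pde4b was not called with the first range of controls.

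Rgs2, which shortens G protein signalling, was the 1 member above 0. Its medians were 41.8, 114, 16.5 and 126 CPM, so radiation lowered it with vehicle (-1.15) and not detectably under dmPGE2 (-0.14), and its interaction was 1.01 ± 0.22 (SE, adjusted p = 0.0031, and 0.11 with all 54 libraries). Cited2, a CBP-binding regulator needed for HSC maintenance, ran the other way. dmPGE2 lowered it in both arms, from a mean of 209 to 51.7 CPM without radiation and from 354 to 53.8 with it. Nr4a1 and Crem, both strongly induced by cAMP, had interactions of -1.47 and -1.52 that were not called (adjusted p = 0.064 and 0.16). Ramp3, a receptor partner protein, went from means of 0.185 to 40.1 CPM with dmPGE2 and from 1.71 to 67.5 after radiation, and its interaction of -2.33 was not called. Dusp1 and Pde4d had interactions of 0.11 and -0.03.

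Among the receptors, Ptger4 (EP4) was called. It had 62.5 to 107 CPM in controls, 48 to 77.1 with dmPGE2, 117 to 204 with radiation and 70.1 to 96.8 with both, with an interaction of -0.50 ± 0.14 (SE, adjusted p = 0.03). It was not called with the first range of controls or with all 54 libraries. Ptger1 and Ptger3 had interactions of -0.33 and 0.20, and Ptger2 (EP2) had group medians of 0.269 to 0.929 CPM, too few counts for a firm value (-1.84 ± 0.98, SE). None of these 3 was called in the interaction.

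Of 36 HSC identity genes, radiation lowered 17 (10.1% over all genes) and raised 1 (10.8%) in vehicle mice, and 18 were not called. None was called with radiation under dmPGE2, where only 0.479% of all genes were, so this says little about the list. The interaction was called above 0 in 4 (2.23% over all genes) and below 0 in 1 (2.52%), with a median of 0.17. Hoxa9, a homeobox factor of stem cell self-renewal, had medians of 59.6, 72.1, 29.0 and 61.5 CPM in the order control, dmPGE2, radiation and both, and an interaction of 0.77 ± 0.15 (SE, adjusted p = 0.00053). Tal1 had medians of 52.2, 56.5, 32.2 and 47.6 CPM, with all libraries of radiation alone (28.5 to 35.7) below all others. Gfi1 and Slamf1 were the other 2, and Gfi1 was not called with the first range of controls. Sox4 moved in the opposite direction, from 158 to 230.4 CPM in controls to 305 to 452 with radiation and 129 to 211 with both. Fgd5, the reporter's gene, had group means of 85.2 to 95.6 CPM and was not called (adjusted p = 0.999), and Procr, Mecom and Kit had interactions between -0.17 and 0.17 that were not called.

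Many interactions above 0 belonged to genes that radiation lowered in vehicle mice. Thbd, which encodes the anticoagulant receptor thrombomodulin, had the highest value above the expression minimum set for naming genes (a mean log2 CPM of 2), at 2.51 ± 0.33 (SE, adjusted p = 8.55e-07). It had 4.38 to 19.4 CPM in controls, 9.41 to 18 with dmPGE2, 1.00 to 3.91 with radiation and 9.78 to 17.4 with both. The irradiated vehicle libraries lay below all others, and the other 3 groups overlapped. Rab3a, a small GTPase of vesicle release, was alike, with medians of 7.69, 6.24, 1.37 and 5.30 CPM. Il21r, a cytokine receptor, had 133 to 225 CPM in controls, 202 to 383 with dmPGE2, 30.7 to 48.6 with radiation and 198 to 398 with both, so dmPGE2 raised it by 0.86 without and 2.95 with radiation (log2). S1pr1, a sphingosine-1-phosphate receptor that guides egress from marrow, had medians of 80.7, 167, 35.6 and 189 CPM and an interaction of 1.13 ± 0.21 (SE, adjusted p = 0.0003).

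Sox18, Lpar5 and Clec14a, an endothelial transcription factor, a lysophosphatidic acid receptor and a vascular lectin, were lowered by either treatment alone. Lpar5 had 17.6 to 31.0 CPM in controls and 4.60 to 10.9 with dmPGE2. It had 3.32 to 7.29 with radiation and 3.61 to 10.5 with both, so every treated group lay below every control library and the 3 treated groups overlapped. Its interaction was 1.80 ± 0.24 (SE, adjusted p = 1.2e-06). Trib3, a pseudokinase of the integrated stress response, had the same form (medians of 60.9, 30.0, 22.1 and 23.6 CPM).

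**Figure D3:**
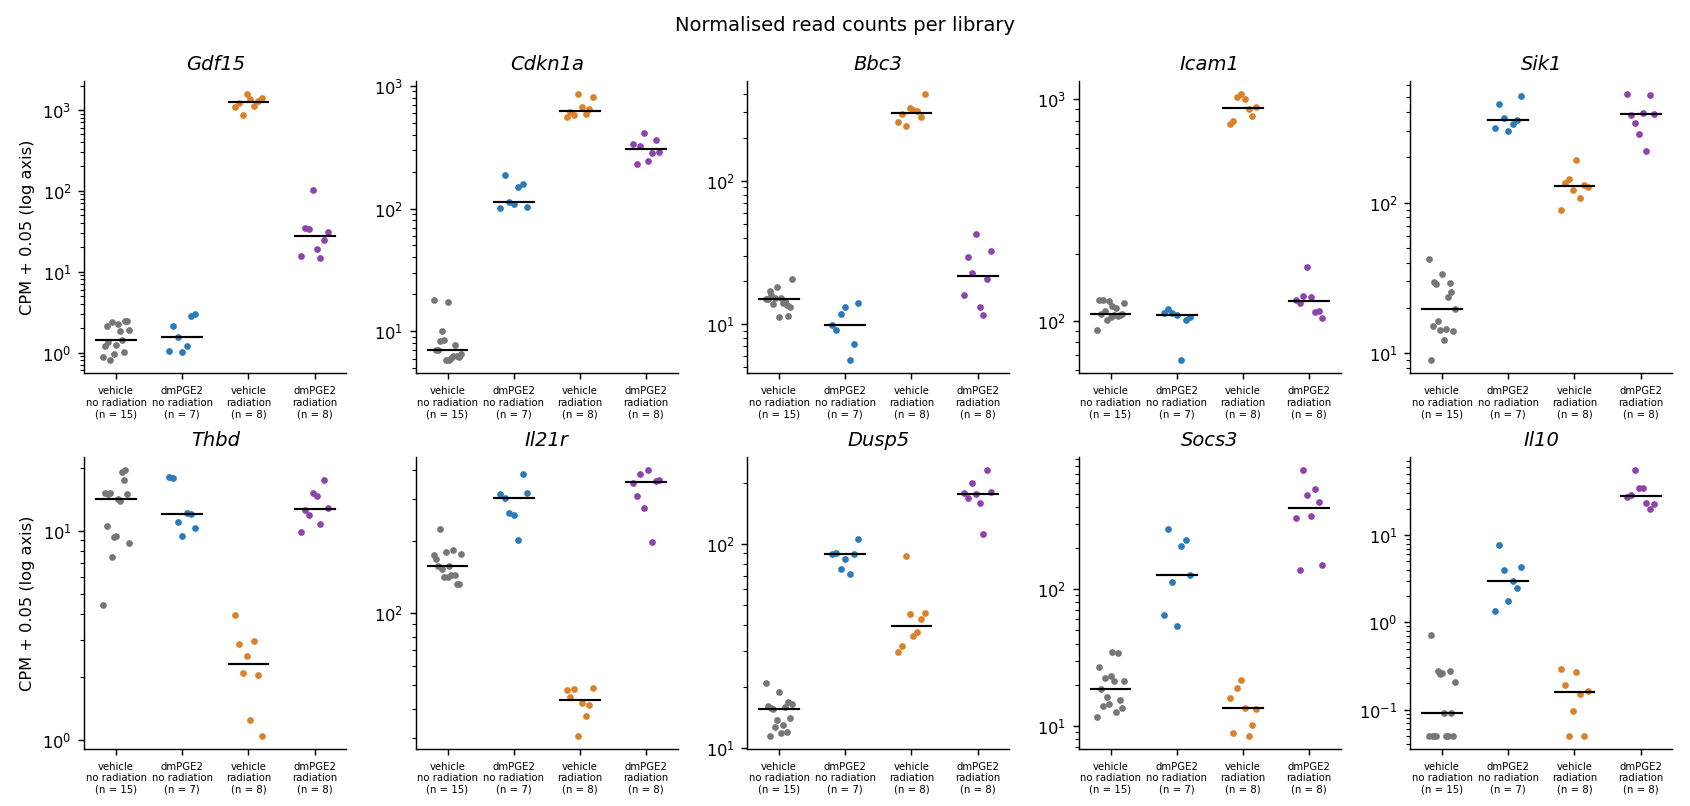
Each point is 1 library, in CPM plus 0.05 on a log axis, with black bars at the group medians; the groups are vehicle without radiation (n = 15), dmPGE2 without radiation (n = 7), radiation with vehicle (n = 8) and both (n = 8). Gdf15, Bbc3 and Icam1 are highest in every library with radiation and vehicle, Thbd and Il21r are lowest there, and Il10 is at a median of 28.1 CPM with both treatments against 2.92 with dmPGE2 alone.

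Of the 312 interactions above 0, 1 was an amplified radiation response and 2 were radiation responses called only under dmPGE2. They are named here after their values were seen. Il10, an anti-inflammatory cytokine, had 0 to 0.661 CPM in controls and 0 to 0.244 with radiation. It had 1.32 to 7.62 with dmPGE2 and 20 to 55.7 with both, and the last 2 groups overlapped neither each other nor the rest. Its interaction was 3.29 ± 0.80 (SE, adjusted p = 0.008), from values close to 0 in vehicle mice, and it was not called by limma voom, with the first range of controls or with all 54 libraries. The comparison of both treatments with dmPGE2 alone, which needs no control library, gave 3.16 (adjusted p = 1.7e-05). Socs3, a feedback inhibitor of JAK-STAT signalling, had 11.6 to 34.6 CPM in controls, 53.9 to 274 with dmPGE2, 8.4 to 21.7 with radiation and 138 to 744 with both. Its interaction was 1.91 ± 0.45 (SE, adjusted p = 0.0062), and with all 54 libraries it was not called (adjusted p = 0.064). Gpr84, a receptor for medium-chain fatty acids on myeloid cells, was the 1 amplified gene, with medians of 1.52, 1.07, 4.05 and 9.32 CPM and an interaction of 2.22 ± 0.59 (SE, adjusted p = 0.017). It too was not called by limma voom, with the first range of controls, with all 54 libraries or without the 5 libraries of tag 5-24.

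For 3 genes radiation was called in opposite directions in vehicle and dmPGE2 mice, at adjusted p values from 0.0076 to 0.034. For each of them, libraries with and without radiation overlapped in vehicle mice and in dmPGE2 mice. Gadd45g, a growth arrest gene, had medians of 8.20, 8.36, 4.89 and 16 CPM, with a radiation effect of -0.75 in vehicle and 1.24 in dmPGE2 mice, and its groups overlapped. Socs1, a relative of Socs3, had medians of 15.5, 21.4, 11.7 and 36.8 CPM and an interaction of 1.27 ± 0.24 (SE, adjusted p = 0.0005). Klf10, a TGF-beta-inducible repressor, had medians of 332, 202, 229.7 and 326 CPM, lower with either treatment alone and near the control level with both, and an interaction of 1.05 ± 0.19 (SE, adjusted p = 0.00018). Hbegf, a growth factor of the EGF family, was raised by dmPGE2, by 1.06 without radiation and 1.82 with it, and the interaction of 0.75 was not called with the first range of controls or with all 54 libraries.

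An additive pattern on the log2 scale means that fold changes multiply. Both single treatments were called in 935 genes, 764 in the same direction, and 319 of the 935 were called in the interaction. Both effects are taken against the same control libraries, so a shift in those moves both the same way. The counts by direction are therefore description only. An additive gene was defined as one of the 935 whose 95% interval of the interaction stayed between -1 and 1. There were 610 of the 935 (4.36% of genes tested), 492 with single effects in the same direction and 118 in opposite directions. The interval lay inside the same bounds in 9836 of all 13995 genes tested, so it is not particular to these genes. The count was 331 with the first range of controls and 392 with all 54 libraries. Small called interactions can fall inside these bounds, as for Pim3 (-0.63) and Mcl1 (-0.72).

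Dusp5, a phosphatase that restrains ERK, had 11.4 to 20.8 CPM in controls and 71.2 to 105 with dmPGE2. With radiation it had 29.6 to 87.4 and with both 112 to 231, above every other library. Its interaction was -0.55 with an interval from -0.97 to -0.13 (adjusted p = 0.132). Csrnp1, a nuclear protein of the immediate early class, had medians of 50.5, 97.8, 145 and 248 CPM and an interaction of -0.24 (interval from -0.58 to 0.09). Ier2, another of that class, had medians of 144, 372, 429 and 893 CPM and an interaction of -0.05 (interval from -0.74 to 0.64). Serpina3g, a serine protease inhibitor, showed opposite single effects. Its medians were 1682 CPM in controls, 794 with dmPGE2, 3231 with radiation and 1132 with both, and the interaction was -0.34 (interval from -0.76 to 0.09). Vegfa, an angiogenic growth factor, was called below 0 on the log2 scale at -1.21, with medians of 10.3, 84.9, 46.9 and 189.7 CPM in the order control, dmPGE2, radiation and both. The difference of differences of its mean CPM was 52.3.

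In the quiescence list 7 of 22 were below 0 and none above. Over all genes tested 2.52% were below 0 and 2.23% above, and the lists of this paragraph share members with those above. The 7 include Cdkn1a, Btg2, Klf4 and Cited2, given above. They also include Tob1, an antiproliferative gene with medians of 36.1, 33.0, 262 and 54.9 CPM. The pro-apoptotic list had 4 of 19 below 0, Bbc3, Pmaip1, Bax and Apaf1, all of them p53 targets already counted. The anti-apoptotic list had 2 of 14, of which Mcl1 was raised by either treatment alone. In the integrated stress list 4 of 25 were below 0 and 2 above. Ddit4, an mTORC1 inhibitor, had 7.73 to 46.8 CPM in controls, 80 to 171 with dmPGE2, 85.2 to 116 with radiation and 64.4 to 263 with both. Nfe2l2, which encodes the oxidative stress factor NRF2, had an interaction of -1.29 ± 0.12 (SE, adjusted p = 7.1e-11), and it was the 1 of 24 called in its list. In the MAP kinase feedback list Dusp10, Dusp16 and Dusp8 were below 0 and Dusp6, an ERK phosphatase that radiation lowered by 1.67 in vehicle mice, above.

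No member was called in the interaction among 30 type I interferon genes, 36 of double-strand break repair, 43 of G1/S, 49 of oxidative phosphorylation, 37 of ribosome biogenesis and 38 ribosomal proteins, in edgeR's test, while 4.75% of all genes were. At an unadjusted p below 0.05 in that test these lists had 4, 3, 7, 15, 4 and 10 members, against 2442 of all 13995 genes. DESeq2 called 1 interferon and 1 G1/S gene, and limma voom called none. With the 7 controls of index 79 to 85, however, 24 ribosomal protein genes and 12 of oxidative phosphorylation were called above 0. In that fit 2 genes of double-strand break repair and 1 each of the interferon, G1/S and ribosome biogenesis lists were called below 0. The medians of these lists lay between -0.14 and 0.26. The G2/M list had 2 of 50 above 0, Plk1 (1.28) and Aurka (0.97), and 1 below (Gtse1), shares near those over all genes (2.23% and 2.52%), and Aurka was not called with the first range of controls. The homing and adhesion list had 2 of 21 above 0, Rhoh and S1pr1. The heat shock and the hypoxia and glycolysis lists had 2 called below 0 each, of 16 and 28, and none above.

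**Figure D4:**
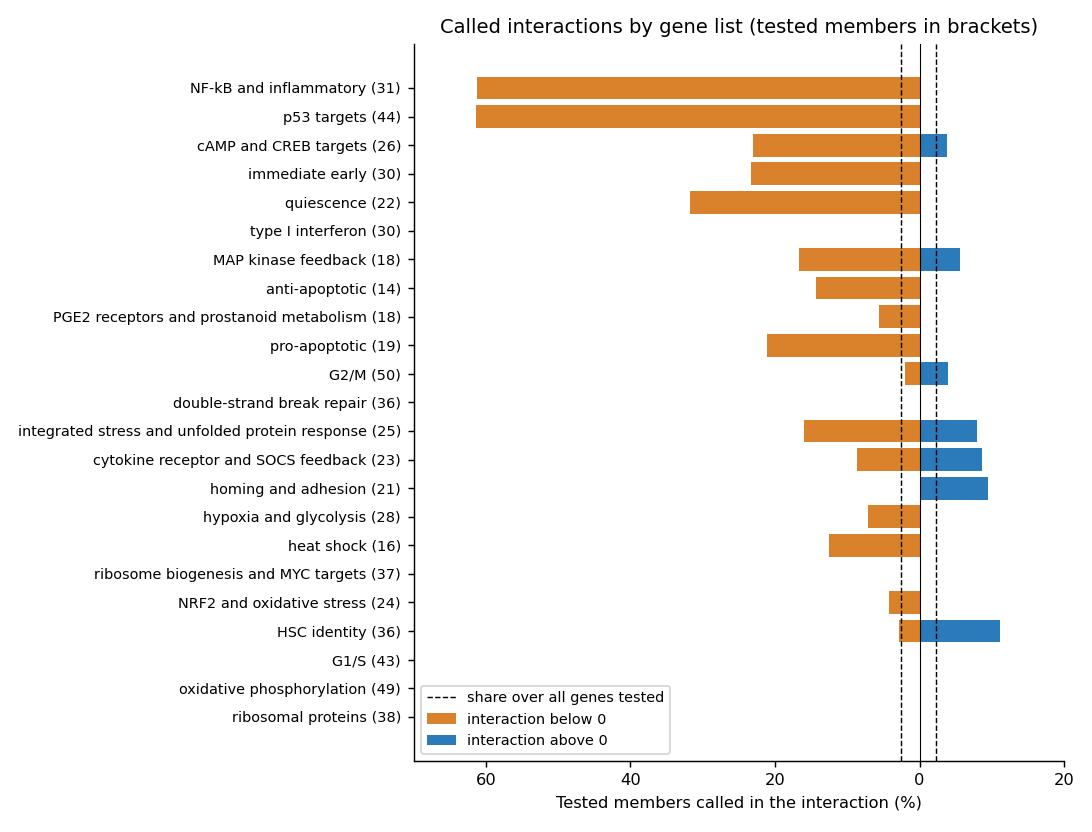
Bars give the percent of tested members called in the interaction, below 0 to the left and above 0 to the right, for each list, sorted by median interaction, with dashed lines at the shares over all genes (2.52% and 2.23%). The p53 and NF-kB lists reach furthest to the left with 27 of 44 and 19 of 31 members.

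The count of called genes moved with the choice of control libraries. It was 438 with the 8 controls of index 42 to 70 and 1378 with the 7 of index 79 to 85, against 665 with all 15. Of the 665, 377 were called in all 3 of these fits, and 373 of them were blunted. The p53 list had 26 members called below 0 with the first range and 27 with the second, and the NF-kB list 19 of 30 and 18 of 30 tested. In both lists no member was called above 0 in either fit. Without the 5 libraries of tag 5-24, to which library 3 of the irradiated vehicle group belongs, 626 genes were called, 612 of them blunted.

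**Figure D5:**
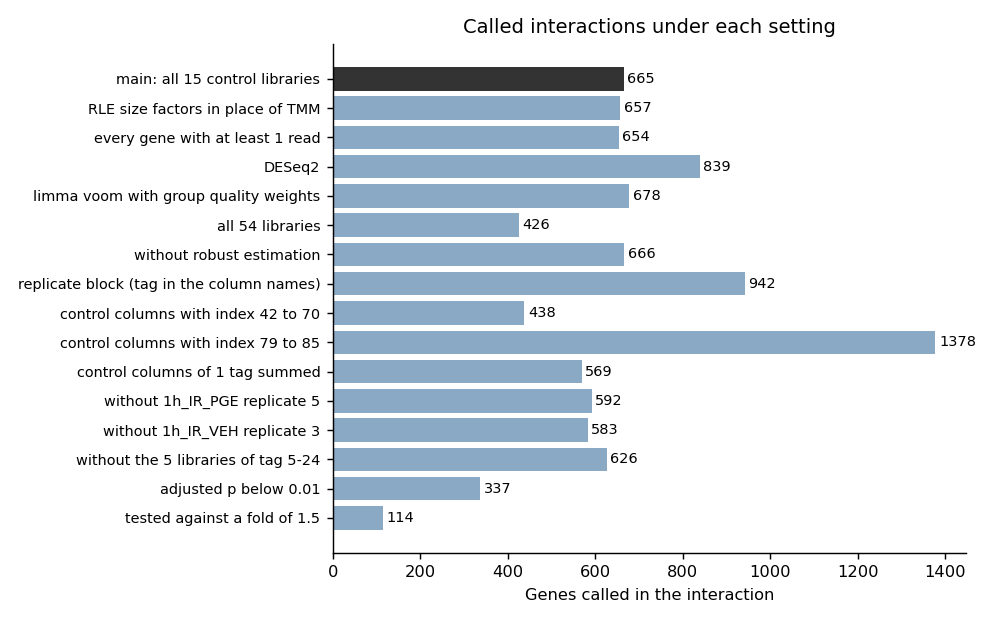
Bars give the number of genes called in the interaction under each setting, with all 15 control libraries in black (665). The count was lowest, 114, when tested against a fold of 1.5, and highest, 1378, with the 7 control libraries of index 79 to 85.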

How the data were processed

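Sorted HSC RNA was amplified (SMART-Seq v4) and tagmented (Nextera XT) according to the labels' protocols. The submitters' processing notes name STAR 2.5.2b, featureCounts in Subread 1.5.1 and the mm10 build. What the authors deposited, per the file headers, are whole-number read counts for each gene, not scaled, next to gene length. No source used here states the annotation, the strand setting or how multiply mapping reads were treated, so overlapping genes and close paralogs are uncertain. The kit adds no molecular tags, so counts are of reads.

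The table holds 24421 genes. Columns were given to groups by name, and the 15 non-irradiated vehicle columns, which name no time, were pooled over 1 h and 24 h. Libraries are numbered within a group by table order. The labels do not say that columns with the same number or tag share an animal, and nothing ties p-values to more than the spread between these libraries. Counts of 38 libraries (15049364 to 26217041) were filtered with filterByExpr (minimum count 10), leaving 13995 genes, and fitted with edgeR 4.0.16 (R 4.3.3) by the quasi-likelihood F test with TMM factors, robust estimation and Benjamini-Hochberg adjustment, called at 0.05. DESeq2 1.42.0 and limma 3.58.1 (voom) were alternatives, beside other size factors, filters, libraries and thresholds. The method was tested on simulated data. CPM are TMM-normalised. Levels are not compared between genes.

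Named genes were the 10 highest and 10 lowest interactions at a mean log2 CPM no lower than 2, up to 4 per list by adjusted p, 4 per form of interaction, the leading additive genes, the EP receptors, Trp53 and Mdm2. Il10 and Gpr84 were added after their values were seen, as were the other list members whose values are given. Members, lists and tests were chosen with earlier results of these data known.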

Additional observations from a re-analysis of the deposited data

Results flagged for a closer look

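The dmPGE2 response differed between irradiated and non-irradiated mice in 665 genes, by the interaction term itself.

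A single library stood apart from the other libraries of its group, by the gap to its nearest neighbour, in 25 of 252 gene and group values tested. The cut-off gives about 1 in 20 for independent, normally distributed values. Most of these genes were picked from these data and the same libraries recur, so the count cannot be judged against that rate. In the irradiated vehicle group library 3 (tag 5-24) was highest for Hoxa9 at 42.9 CPM, Btg1 at 248 CPM, Dusp16 at 51 CPM, Dusp5 at 87.4 CPM and Sgk1 at 85.8 CPM. It was lowest there for Sesn2 at 394 CPM, Enthd2 at 7.83 CPM and Trp53 at 223 CPM. Library 6 of that group was lowest for Gfi1 at 0.696 CPM. In the group given both treatments library 4, which carries the same tag 5-24, was highest for Gdf15 at 100.9 CPM, Icam1 at 175 CPM and Pmaip1 at 39.1 CPM, and lowest for Hoxa9 at 40.7 CPM. Library 6 of that group was lowest for Maff at 40.0 CPM, Ddit4 at 64.4 CPM and Sgk1 at 84.2 CPM. In the non-irradiated dmPGE2 group library 5 was lowest for Clec14a at 1.23 CPM, Icam1 at 66.5 CPM and Tob1 at 24.6 CPM. Library 2 there was highest for Ier2 at 711 CPM and Sgk1 at 113 CPM and lowest for Herpud1 at 135 CPM. Library 4 was lowest for Lpar5 at 4.60 CPM, library 1 highest for Ccng1 at 182 CPM and library 3 highest for Smco4 at 8.80 CPM. Without library 3 of the irradiated vehicle group the interaction was called in 583 genes, and without all 5 libraries of tag 5-24 in 626.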

How the results depend on the processing

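The interaction count of 665 was 657 with RLE size factors, 654 with every gene that had a read, 839 with DESeq2, 678 with limma voom, 666 without robust estimation and 569 with control columns of 1 tag summed. It was 426 with all 54 libraries, 438 with controls of index 42 to 70, 1378 with those of index 79 to 85, 337 at an adjusted p below 0.01 and 114 tested against a fold of 1.5, which is a stricter question. The cause of the difference between the control ranges was not tested. Interactions above 0 were 312 of 665, and 173 of 438 with index 42 to 70, 634 of 1378 with index 79 to 85, 211 of 569 with tags summed, 275 of 654 with every gene that had a read, 244 of 592 without library 5 of the group given both and 28 of 114 against the fold. Of the 665, 322 were called in the main and every alternative fit, 319 of them blunted. Blunted genes numbered 419 with all 54 libraries and 1321 with index 79 to 85. The additive count of 610 was 392 and 331 with all 54 libraries and with index 42 to 70. Radiation with vehicle was called in 1773 genes with index 42 to 70, and radiation under dmPGE2 in 109 with DESeq2. Leaving out library 5 of the group given both, or library 3 of the irradiated vehicle group, gave 592 and 583. On the linear scale the difference of differences of mean CPM was 52.3 for Vegfa and 10.34 for Pim3, both above 0. The choice of control ranges, tag sums and libraries left out was made after seeing the data.

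When the column tag entered the model as a replicate block, 942 genes were called in the interaction. Same-tag pairs of libraries had correlated deviations (median 0.296, from -0.00667 to 0.737, against -0.0594 for other pairs), and 65 of 72 were over 0.1 against 116 of 505 others. Sex transcripts matched in 66 of the 72 and 223 of the 505. This is a hint from the data and not from the labels, and the main fit treats the libraries as independent. The cut-off of 0.1 does not decide whether same-tag libraries are paired. The block also called 3 G1/S genes above 0. Of the 84 named genes 16 were no longer called with index 42 to 70 and 12 with all 54 libraries.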
